A study of Homo sapiens with 32 samples.

Results

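SP1 summits far from gene starts and away from ZNF143, NRF1 and YY1 made up 57226 of the 126181 SP1 summits on chromosomes 1 to 22 and X (45.4%). A summit is the base of highest ChIP-seq signal in a peak or part of a peak. Members were chosen by their distance from gene starts and from the summits called in the other lists: a summit was taken when it lay more than 2000 bp from the 5′ end of every protein-coding gene of GENCODE 44 and had no summit of the other 3 factors within 100 bp. These positions are called SP1-alone summits. The name stands for the absence of the 3 other factors in these lists, and says nothing of the many factors that were not measured. Of the rest, 41816 SP1 summits (33.1%) were distal and had another factor within 100 bp, and are called shared summits. A further 27139 (21.5%) lay within 2000 bp of a gene start. Because the presence or absence of ZNF143, NRF1 and YY1 summits chose the members, everything that follows from it is a description.

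The cells were a clone of HEK293T, a human embryonic kidney line, in which ZNF143 carries a dTAG degron and an HA tag in all groups, controls included. They were left untreated or given 50 nM of the degrader dTAGV-1 for 30 minutes before fixation. SP1, NRF1 and YY1 were precipitated with antibodies from 4 untreated and 4 treated samples each, ZNF143 through HA from 2 and 2, and mock precipitations were made from 2 and 2. All samples stem from 1 clone, and the deposited SP1 list stands for its untreated and treated samples together. It holds no value per sample, so treatment was not compared, and intervals below cover only the counting of summits, which are not replicates.

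SP1 is a zinc finger activator that binds GC-rich DNA, above all the GC box, and is best known at CpG-island promoters of widely expressed genes. It also occupies distal elements, where enhancers are bound by factors such as AP-1, GATA, FOX and NFI proteins, and where CTCF holds chromatin loops. ZNF143, NRF1 and YY1 are sequence-specific factors that bind many promoters, and YY1 also binds enhancers.

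Sequences at named summits show the kinds of letters found at these positions. Each is 101 bases of hg38, plus strand, with the summit in the middle. The first 3 hold the GC box, which is marked in capitals on either strand, and are the summit with the highest score of all, in an intron of STAP2, that beside MRGBP, and the summit in an intron of SBNO2.
STAP2, chr19:4328487-4328587: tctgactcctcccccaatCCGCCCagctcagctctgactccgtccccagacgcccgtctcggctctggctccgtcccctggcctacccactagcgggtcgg
MRGBP, chr20:62794410-62794510: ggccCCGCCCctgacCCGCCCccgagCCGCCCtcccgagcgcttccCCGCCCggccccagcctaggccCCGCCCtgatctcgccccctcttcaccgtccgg
SBNO2, chr19:1123164-1123264: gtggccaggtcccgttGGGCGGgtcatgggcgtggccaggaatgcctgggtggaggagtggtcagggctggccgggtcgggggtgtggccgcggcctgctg

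The next pair carries the AP-1 site TGAGTCA, in capitals, and comes from upstream of LAMP2 and from a non-coding exon at a start of CREB5.
LAMP2, chrX:120485704-120485804: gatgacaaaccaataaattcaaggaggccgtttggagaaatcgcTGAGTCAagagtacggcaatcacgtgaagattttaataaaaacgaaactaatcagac
CREB5, chr7:28685999-28686099: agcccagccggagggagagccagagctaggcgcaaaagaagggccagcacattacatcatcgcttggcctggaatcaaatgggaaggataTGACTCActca

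The last 3 carry other letters in capitals, a CTCF consensus in introns of NBDY and SEPTIN9 and a pair of CCAAT boxes at the start of the lncRNA OLMALINC.
NBDY, chrX:56764561-56764661: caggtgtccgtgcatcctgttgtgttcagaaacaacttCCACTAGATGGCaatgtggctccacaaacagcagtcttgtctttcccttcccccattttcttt
SEPTIN9, chr17:77374539-77374639: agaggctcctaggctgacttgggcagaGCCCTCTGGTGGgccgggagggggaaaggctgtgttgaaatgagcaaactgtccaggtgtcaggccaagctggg
OLMALINC, chr10:100373441-100373541: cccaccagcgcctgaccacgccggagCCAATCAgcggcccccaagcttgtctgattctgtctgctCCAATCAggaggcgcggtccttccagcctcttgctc

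SP1-alone summits were weak. The score of the list is the authors' −log10 of a p- or q-value, which of them is not stated, and it was read only within the SP1 list. Its median was 7.38 at SP1-alone summits (95% interval 7.31 to 7.38, quartiles 3.93 and 15.7). It was 34.4 at shared summits and 37.3 at summits near gene starts. The order held between the distal classes on 23 of 23 chromosomes, with medians per chromosome of 6.15 to 9.67 for SP1-alone and 22.6 to 45.4 for shared summits. Scores under 10 were found at 61.0% of SP1-alone summits, against 22.2% of shared summits. A score of 100 or more was reached by 1487 SP1-alone summits (2.60%), against 27.9% of shared summits and 34.9% of those near gene starts.

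Read from the other side, the share of SP1-alone summits grew as the score fell. In the highest-scoring decile of the SP1 list they were 555 of 12618 summits, 4.40%. In the lowest decile they were 9434 of 12619, 74.8%. The share was higher in each decile than in the next higher-scoring decile. The distance rule runs through a gradient: SP1 summits with another factor 75 to 100 bp away, just outside the rule, had a median score of 16.2 (3868 summits), and those 100 to 125 bp away, just inside, 13.4 (2708 summits). The median was 52.0 within 25 bp. At the gene-start limit, it was 6.55 at 1500 to 2000 bp and 6.01 at 2000 to 2500 bp.

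**Figure D1:**
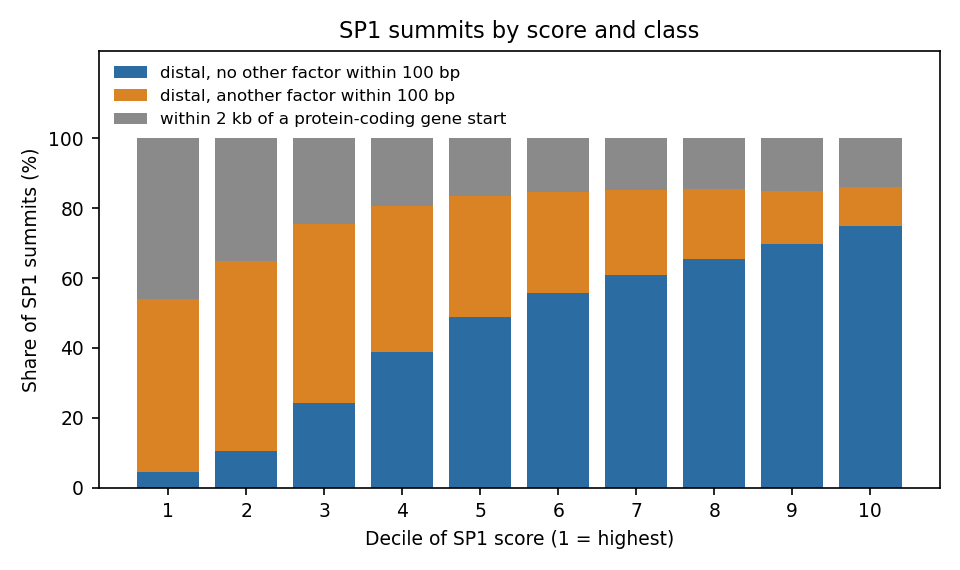
Share of SP1 summits (%) in each class, by decile of SP1 score from the highest (1) to the lowest (10). Blue bars are SP1-alone summits, orange bars shared distal summits and grey bars summits within 2 kb of a gene start, and the blue share goes from 4.40% to 74.8%.

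Many SP1-alone summits belonged to a larger peak or lay near other factors. The summits fell in 44640 peaks, and 29528 of them (51.6%) were alone in their peak. Another 16080 (28.1%) shared a peak with an SP1 summit of another class, and their median score was 6.55, against 8.69 for those alone. The nearest ZNF143, NRF1 or YY1 summit was over 100 to 250 bp away for 17.6% and 250 to 1000 bp away for 24.0%. It was 1 to 10 kb away for 31.9%, 10 to 100 kb for 22.04%, and over 100 kb for 4.49%. YY1 was the nearest for 78.5%, NRF1 for 12.2% and ZNF143 for 9.33%. The lists differ in length, with 106578 YY1, 39180 NRF1 and 16165 ZNF143 summits on these chromosomes. From the nearest protein-coding gene start, 36.4% of SP1-alone summits lay over 100 kb away, against 30.5% of shared summits.

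Introns of protein-coding genes held 29949 SP1-alone summits (52.3%, SD 5.12 over chromosomes), where they make up 41.0% of distal bases, a ratio of 1.28. Intergenic DNA held 30.7%, a ratio to its bases of 0.777, and introns of lncRNA genes 10.4%, a ratio of 0.727. The highest ratio to bases, 1.79, was that of lncRNA exons, with 876 summits (1.53%). Coding exons held 0.931%, a ratio of 0.852. Shared summits had a close ratio in protein-coding introns, 1.25, and a higher one in lncRNA exons, 2.77. SP1-alone summits were spread from 9.68 per Mb on chromosome 21 to 28.6 per Mb on chromosome 19, and made up 36.7% to 50.7% of a chromosome's SP1 summits.

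Distal here means distal to the annotated 5′ end of each protein-coding gene, and 3932 SP1-alone summits (6.87%, interval 6.67 to 7.08) still lay within 500 bp of another annotated transcript start. Such starts cover 3.13% of distal bases and 5.09% of the positions 10 kb to either side of the summits. Those positions were not limited to distal DNA and could lie near protein-coding gene starts, unlike the summits. Alternative starts of protein-coding genes accounted for 2422 summits, lncRNA starts for 1315, small RNA and other starts for 261 and pseudogene starts for 216, with some near several kinds. Summits at such starts had a higher median score, 11.999 against 7.14, on 23 of 23 chromosomes. Shared summits lay at such starts more often, 12.4%.

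The highest scores belonged largely to such starts. Of the 74 SP1-alone summits with a score of 1000 or more, 47 lay within 500 bp of a transcript start, and 65 had another factor within 250 bp, just beyond the 100 bp of the rule. The STAP2 summit (score 7423.54) was 236 bp from an alternative STAP2 start and 124 bp from an NRF1 summit. STAP2 codes for a signalling adaptor. The second (5603.39) was 2013 bp upstream of MRGBP, which codes for a subunit of the NuA4 acetyltransferase complex, and its window held 5 GC boxes. It was just outside the gene-start limit and had an NRF1 summit 166 bp away. The third (5546.21) was 97 bp from an alternative start of HNRNPL, a splicing regulator, with YY1 at 115 bp and ZNF143 at 116 bp. Another 4 of the 8 highest lay at copies of U2 snRNA and at the snoRNA gene SNORD3B-2 on chromosome 17, each with a ZNF143 summit 102 to 105 bp away and with the 31 bases at the summit at 2 to 71 places of the genome. All 4 lay in regions where the NRF1 or YY1 list skips peak numbers, so the absence of the factor whose list skips there was not tested.

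Beyond 100 kb from a protein-coding gene start, the highest were 2 summits inside NFIA (1912.85 and 1462.02), the gene of an NFI family factor, and 1 in an intron of the lncRNA FIRRE (1486.22). The NFIA summits had YY1 at 103 and 120 bp, the FIRRE summit at 179 bp. Of the NFIA summits, that with 1462.02 was 95 bp from an alternative NFIA start, and that with 1912.85 was 656 bp from a transcript start. The highest at lncRNA gene starts were 88 bp from ENSG00000261335 on chromosome 17 (2532.47), 22 bp from a transcript start at OLMALINC and ENSG00000289301 (2020.65), and 46 bp from RNU1-1, a U1 snRNA gene beside a lncRNA gene (1847.06, with its 31 bases at 14 places).

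Away from every transcript start and over 1000 bp from any other factor were 32092 SP1-alone summits, 56.1%. Their median score was 7.44, and 257 reached 100. In this set, limited to sequence at 1 place in the genome and looked up after the values were seen, the highest was in an intron of SBNO2 (1572.17), 9750 bp from the nearest other factor. The next 2 lay in the same intergenic stretch, over 100 kb from SMARCA1 (1134.86 and 737.823), and 2 more were in introns of KMT2C (582.773 and 409.766).

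GC content set the classes apart. The median over 101 bp was 40.6% at SP1-alone summits (quartiles 34.7 and 47.5), close to the 39.6% of windows 400 bp to either side, called flanks below. Shared summits had 45.5% against 41.6% in their flanks, and summits near gene starts 60.4% against 55.4%. CpG-rich sequence, with GC over 50% and an observed-to-expected CpG ratio over 0.6 within 100 bp, was found at 4.48% of SP1-alone, 12.8% of shared and 54.9% of gene-start summits.

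The GC box GGGCGG, the letters SP1 is known for, lay within 50 bp of 2157 SP1-alone summits (3.77%, interval 3.62 to 3.93). Flanks held it at 2.35%, a ratio of 1.60, and the ratio was above 1 on 23 of 23 chromosomes. Of all windows of that length on these chromosomes, 1.50% held it. At shared summits the share was 7.26%, higher by 3.49 percentage points (interval of SP1-alone minus shared −3.79 to −3.20), on 23 of 23 chromosomes. The longer form GGGGCGGGG was at 0.792%, 2.75 times its flanks. Most SP1-alone summits thus had no exact GC box in the window, and sites with a mismatch were not searched. At the transcript starts above the share was 17.9%, elsewhere 2.72%.

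GC boxes went with the score. From the highest to the lowest decile of score among SP1-alone summits the share fell from 12.7% to 1.68%, and its ratio to flanks from 2.12 to 1.03. The long form fell from 4.44% to 0.0874%. CpG-rich sequence fell from 17.6% to 1.71%, summits at a transcript start from 18.2% to 4.09%, and summits with another factor within 250 bp from 39.8% to 12.3%. In the lowest-scoring decile GC boxes were thus about as frequent as beside the summit.

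The order of the classes turned at high scores. Among SP1 summits of the highest decile of the whole list, 34.4% of the 555 SP1-alone summits had a GC box, against 11.05% of 6265 shared summits. In the second decile it was 18.5% against 8.90%, and in the third 8.38% against 7.17%. In the other 7 deciles it was lower at SP1-alone summits, with 4.66% against 7.57% in the fourth and 1.76% against 3.06% in the lowest. GC content differed as well. Its median was 56.4% at SP1-alone against 43.6% at shared summits in the first decile and 49.5% against 44.6% in the second. In the third it was 42.6% against 44.6%, and in the lowest 38.6% against 41.6%. These shares were not set against flanks, and the part of GC content in their order was not tested. SP1-alone summits were few in the deciles where GC boxes were most frequent. What part this had in their lower share over all scores was not tested. At transcript starts the highest decile had GC boxes at 47.4% of 270 SP1-alone and 37.9% of 1178 shared summits, and away from them at 22.1% of 285 and 4.84% of 5087. Limited to sequence at 1 place in the genome, the share in that decile was 37.1% (interval 32.9 to 41.5) against 10.6% (9.84 to 11.4).

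Letters of other factors also stood out against flanks, with ratios above the 1.60 of GGGCGG and on either side of the 2.75 of its longer form. The AP-1 site TGAGTCA, bound by FOS and JUN dimers, was at 2206 SP1-alone summits (3.85%, interval 3.70 to 4.02), against 1.40% of flanks (ratio 2.75). The GATA site AGATAAG was at 2486 (4.34%), against 1.48% of flanks (ratio 2.93). The FOX site TGTTTAC was at 3.30% (ratio 1.98). All 3 ratios were above 1 on 23 of 23 chromosomes. The palindrome of NFI factors was at 399 summits (0.697%, ratio 4.46), and the CREB site TGACGTCA at 109 (0.190%, ratio 5.59). The CCAAT box CCAATCA, bound by NF-Y, was at 951 summits (1.66%, ratio 1.91).

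Letters above their flanks also included the G-rich run GGGGAGGGG, bound by MAZ (1.10% against 0.510%, ratio 2.15, above 1 on 22 of 23 chromosomes). The E-box CAGCTG was at 4.89% against 3.66% (ratio 1.34, on 22 of 23). The ETS site CCGGAAGT had a ratio of 1.42 at 42 summits and the TCF/LEF site CTTTGATC 1.34 at 200, above flanks on 14 and 10 of 23 chromosomes. Several others were near or below their flanks. The TEAD site CATTCC was at 5.82% of summits against 5.53% of flanks, the homeodomain site TAATTA at 4.46% against 4.37%, and the CACCC box CCACACCC, a KLF site, at 0.785% against 0.797%. The octamer ATGCAAAT, bound by POU factors, was below its flanks (0.561%, ratio 0.771), as was the E-box CAGGTG of ZEB type (6.12%, ratio 0.871). Of the factors used in the rule, the ZNF143 and YY1 consensus letters were below their flanks, with ratios of 0.706 and 0.282. The NRF1 consensus was at 0 of 57226, which allows a share of up to 0.00524% (3 counts) or 0.00671% (Wilson upper limit). Flanks held it at 0.00612%, which lies between these limits, so whether the shares differ cannot be decided at these numbers. The rule kept out SP1 summits close to those of these factors, so these values are not independent of it. How much of them it accounts for was not tested.

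**Figure D2:**
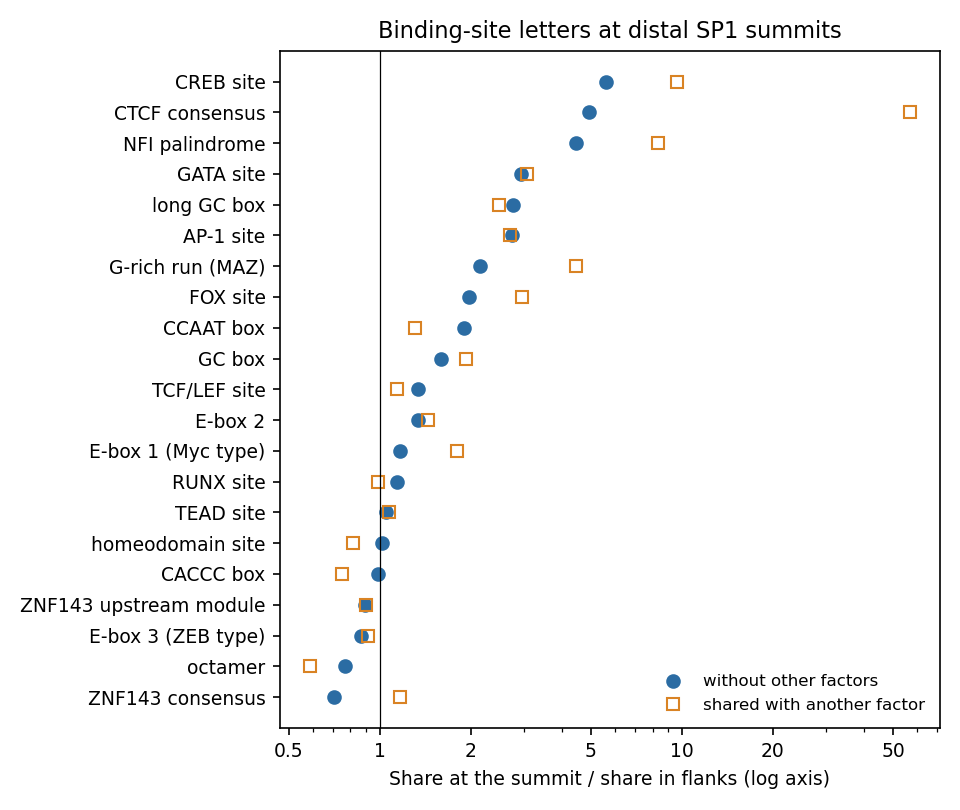
Share of summits with the letters of a factor within 50 bp, divided by the share in flanks 400 bp away (log axis), for SP1-alone summits (blue circles) and shared summits (orange squares), for letters at 100 or more SP1-alone summits. AP-1 and GATA sites are near 3 in both classes, while the CTCF consensus is at 4.94 and 56.7.

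The same letters clustered around the summit base. Within 25 bp the density of AP-1 sites was 2.76 times that at 200 to 300 bp, and of GATA sites 3.06 times. It was 4.57 times for the NFI palindrome, 2.33 for the CCAAT box, 1.61 for the GC box and 1.04 for the TEAD site. AP-1 copies within 100 bp lay a median of 39 bp from the summit and TEAD copies 50.5 bp.

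**Figure D3:**
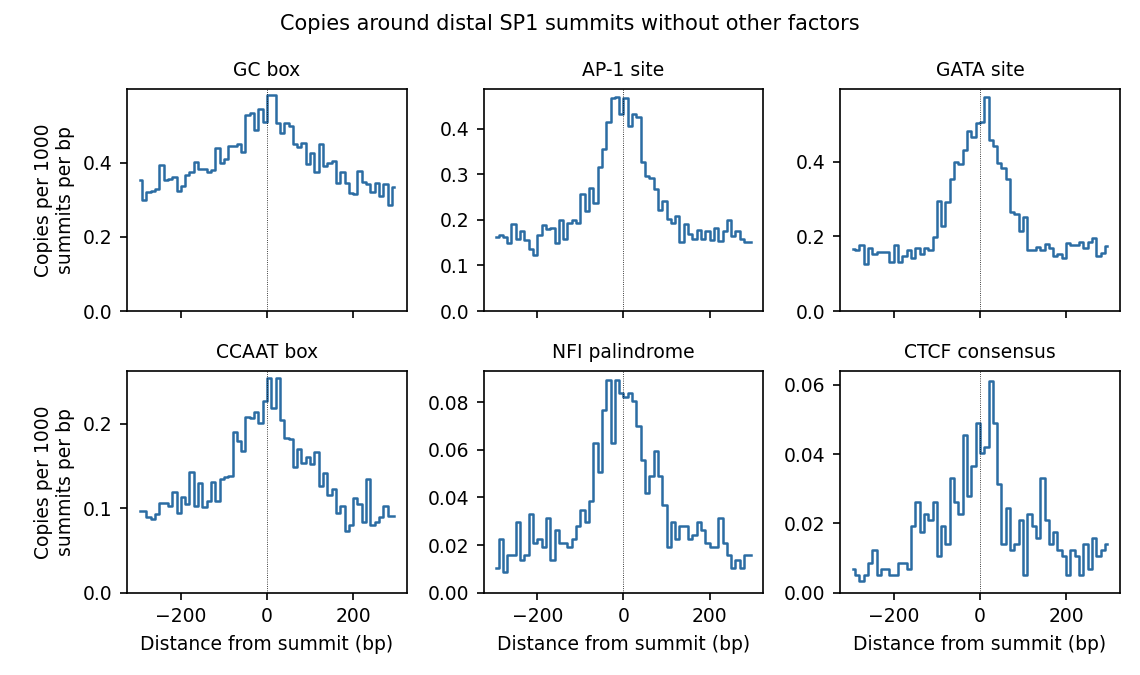
Copies of 6 kinds of letters per 1000 SP1-alone summits and base (vertical axis), in steps of 10 bp from 300 bp before to 300 bp after the summit (horizontal axis). AP-1, GATA, CCAAT and NFI letters rise to a peak at the summit, and the GC box does so over a higher and broader base.

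AP-1 and GATA letters were about as common at SP1-alone as at shared summits. For AP-1 the shared share was 4.04%, and the difference of −0.182 percentage points had an interval of −0.429 to 0.0629. For GATA it was 4.19%, a difference of 0.154 with an interval of −0.101 to 0.408. CCAAT boxes were more common at SP1-alone summits, 1.66% against 1.07%, on 19 of 23 chromosomes. In sequence at 1 place in the genome it was 1.44% against 1.11%. FOX sites were less common, 3.30% against 4.64%, on 19 of 23 chromosomes, and so was the G-rich run, at 1.10% against 3.33%. Within equal score deciles of the SP1 list, CCAAT boxes were more common at SP1-alone summits in 10 of 10 deciles, and AP-1 and GATA sites in 8 of 10. The 2 highest deciles were the exceptions for AP-1 (3.60% against 4.80% in the first) and for GATA (2.70% against 6.35%).

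By share, these letters moved less steeply with the score among SP1-alone summits than the GC box did. AP-1 sites went from 5.09% in the highest decile over 6.15% in the second to 1.90% in the lowest. GATA sites went from 5.26% over 6.48% in the third to 2.32%. CCAAT boxes fell from 3.86% to 0.909%. Ratios to flanks fell from 4.04 to 1.63 for AP-1, 4.24 to 1.69 for GATA and 3.78 to 1.32 for CCAAT letters. For the GC box the ratio fell from 2.12 to 1.03, so by ratio the other letters did not fall less steeply. In the second to the lowest decile, AP-1 and GATA sites were each more frequent than GC boxes.

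**Figure D4:**
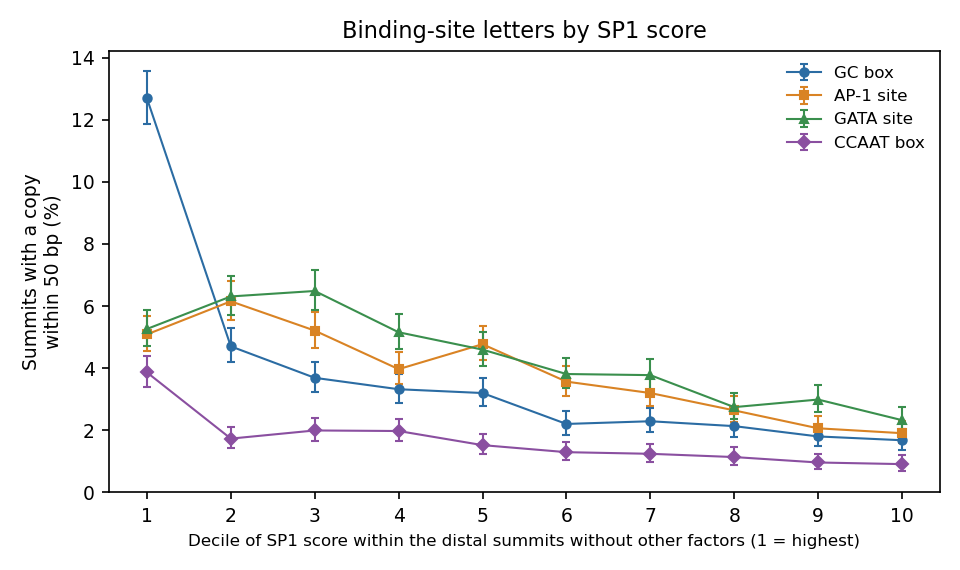
Share of SP1-alone summits with each kind of letters within 50 bp (%), by decile of their SP1 score from the highest (1) to the lowest (10), with Wilson 95% intervals. GC boxes drop from 12.7% to 4.70% between the first and second decile, while AP-1 and GATA sites are between 5.09% and 6.48% in the first 3.

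The CTCF consensus, the binding site of the loop-anchoring factor, was rare at SP1-alone summits: 220 held it (0.384%), 4.94 times flanks. At shared summits it was at 2.64%, 56.7 times flanks. The share was lower at SP1-alone summits on 23 of 23 chromosomes and in 9 of 10 score deciles, the highest being the exception (0.180% against 0.144%). In that decile the consensus was at 1 of 270 SP1-alone summits at transcript starts and 0 of 285 away from them. Of the shared summits there, 3 of 1178 and 6 of 5087 held it. At SP1-alone summits the share of the consensus differed with how far the next factor was, with no steady order. With another factor at over 100 to 250 bp the consensus was at 0.329% of summits (ratio to flanks 2.20), and at 250 to 1000 bp at 0.0510% (ratio 0.304). At 1 to 10 kb it was at 0.438% (ratio 20.0), at 10 to 100 kb at 0.761% (ratio 38.4), and beyond 100 kb at 0.156%, with none in flanks. Flanks lie 400 bp from the summit, so with another factor at 250 to 1000 bp they could cover its position. Over 1000 bp from any other factor, the consensus was at 0.538% of SP1-alone summits, 27.7 times flanks. How far the place of the flanks shaped these ratios was not tested. The highest-scoring example lay in an intron of LTBP4 (1466.68), 123 bp from YY1. The second was that in NBDY, the gene of a microprotein of P-bodies (124.152), 8311 bp from any other factor and 27034 bp from any transcript start. The third, in the cytoskeletal gene SEPTIN9 (107.353), was 412 bp from an alternative start, with NRF1 at 155 bp and YY1 at 189 bp.

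The highest-scoring SP1-alone summits with TGAGTCA were 66 bp from the lncRNA ENSG00000288759 near RBM10 (1426.62), 16389 bp upstream of LAMP2, a lysosomal membrane protein gene (639.683), and 68 bp from a start of CREB5, the gene of a CREB-type factor (578.42). They had YY1, ZNF143 or NRF1 at 141 to 189 bp, so the highest scores of this kind also lay near other factors.

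Together, GC box, AP-1, GATA, FOX, CCAAT, NFI, CREB and CTCF letters, 8 kinds, were at 9703 SP1-alone summits (17.0%, interval 16.7 to 17.3), against 7.84% of flanks. Letters of 2 or more kinds were at 694 (1.21%), against 0.209% of flanks. AP-1 and GATA letters met at 89 summits, and GATA letters were at 4.03% of summits with AP-1 letters and at 4.36% of those without. Most SP1-alone summits held none of these letters.

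Counting all words of 8 letters without a list gave AP-1, GATA and CCAAT letters again, and some others. Of 4832 words found at 0.5% or more of the summits, ATGAGTCA had the highest ratio to flanks (1.54% against 0.358%, ratio 4.30). ATGACTCA (3.96) and GTGACTCA (3.56) hold the same AP-1 core. GATA words were AGATAAGA (3.49) and CTTATCTC (3.22). CAATCAGC (3.76) and CCAATCAG (3.23) overlap in the CCAAT box, and CGCCCCTC (3.30) is GC-rich. CATAAATC (3.91) and GCAATAAA (3.17) share the core ATAAA, which resembles sites of posterior HOX proteins. No site list held it. In the 27672 SP1-alone summits at 1 place in the genome and over 1000 bp from other factors, a set added after the values were seen, 5 of the 20 leading words held ATAAA (ratios 3.87 to 5.17). Another 3 held CAGCAGG (3.64 to 4.07), 3 held TGAGTCA (4.11 to 5.73) and 4 held GATAAG (3.61 to 3.99). The CCAAT words CAATCAGC and CCAATCAG were not among these 20.

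Repeated sequence was a larger part of SP1-alone summits than of the others. The 31 bases around the summit occurred at 2 or more places of the assembly for 8336 (14.6%, interval 14.3 to 14.9), against 9.92% of shared and 5.02% of gene-start summits. Their median score was 5.32, against 7.81 for those at 1 place. Reads that reach no further than such sequence cannot be assigned to 1 place, and how the authors handled them is not given in the sources used here. The share of such summits rose from 11.2% in the highest to 22.6% in the lowest score decile, and was 74.4% where the nearest other factor was over 100 kb away. CCAAT boxes were more frequent at repeated (2.95%) than at other SP1-alone summits (1.44%), AP-1 sites less (2.08% against 4.16%).

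Some SP1-alone summits lay where the other lists are thinned. Peak names in the NRF1 and YY1 lists skip runs of numbers in 44 regions covering 142 Mb. These held 3997 SP1-alone summits (6.98%), 408 shared summits (0.976%) and 90 near gene starts. Of the 3997, 95.2% were in repeated sequence, and their median score was 4.40. A summit there can lack a partner because NRF1 or YY1 peaks were removed. For these summits the absence of the factor whose list skips was not tested.

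SP1-alone summits came in groups. Neighbours were a median of 9761 bp apart, 73.5% lay in groups of 2 or more, joined where the gap was at most 12.5 kb, and 13.4% in the 471 groups of 10 or more. The largest groups were in gene-free sequence around centromeres: 145 summits on chromosome 1 from 122625988 to 122961704, 130 and 63 on chromosome 5, and 128 on chromosome 19. Their median scores were 4.15 to 4.27, and all of their summits were in repeated sequence and skipped regions. The fifth, of 60 summits, covered the array of U2 snRNA genes at CCDC200 on chromosome 17, 98.3% in repeated sequence, with a median of 7.61, and it too lay wholly in skipped regions.

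Large groups also lay in sequence that was mostly at 1 place in the genome. The 4 largest of these outside chromosome 8, looked up after the values were seen, were the 52 summits over PRPS1 and TSC22D3 on chromosome X (13.5% repeated), the 48 over FOXP1, a forkhead factor gene (2.08%), the 47 at FIRRE (14.9%) and the 44 over the HOXC genes (0%). In these, 77 to 111 SP1 summits of any class lay in the same span.

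By gene, the count of SP1-alone summits within 50 kb of the 5′ end had a median of 1 over 19970 protein-coding genes. It was 0 for 31.1% of genes and 8 or more for 7.45%. High counts were at CCDC200 (46, of which 44 repeated) and HOXC8 (44, 0 repeated). Also among the 8 highest were ZNF608 (37), TRIM7 (36), HOXB2 (28) and HOXA4 (27). HOXC, HOXB and HOXA genes set position along the body axis, and 3 of the 4 HOX clusters were thus among the 8 leading loci. Around HOXA4 the median score was 56.7 and around HOXC8 6.47, with 47 and 37 shared summits in the same windows.

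Lists of genes differed in how many SP1-alone summits they had nearby. Transcription factors of the kidney lineage, 18 genes, had a median of 3.5, with 17 at FOXC1, a forkhead factor gene. AP-1 subunits, 14 genes, had 3.5 (ATF3 12, FOSB 11). The KLF family, 17 genes for factors that also bind GC-rich DNA, had 4 (KLF9 14, KLF5 12). Targets of YAP and TEAD, 20 genes, had 3 (PTPN14 20, AJUBA 11). Housekeeping genes, 18, had 3.5 (PPIA 11), and none of them had 0.

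Genes of other tissues had fewer. Liver genes had a median of 0, with none at 13 of 18 and a highest count of 2 at ALB, the albumin gene. Blood cell genes had a median of 0, with none at 10 of 18 and 5 at HBA1, an alpha-globin gene. Neuronal genes had a median of 1, as all genes did, with 5 each at CAMK2A, GRIN1 and NCAM1. The counts of the other classes went along: median shared summits were 2.5 for the kidney list, 4.5 for AP-1 subunits and 0 for liver genes, against 1 for all genes. The lists also differ in how many gene starts lie within the windows, and the part of that in the counts was not tested.

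**Figure D5:**
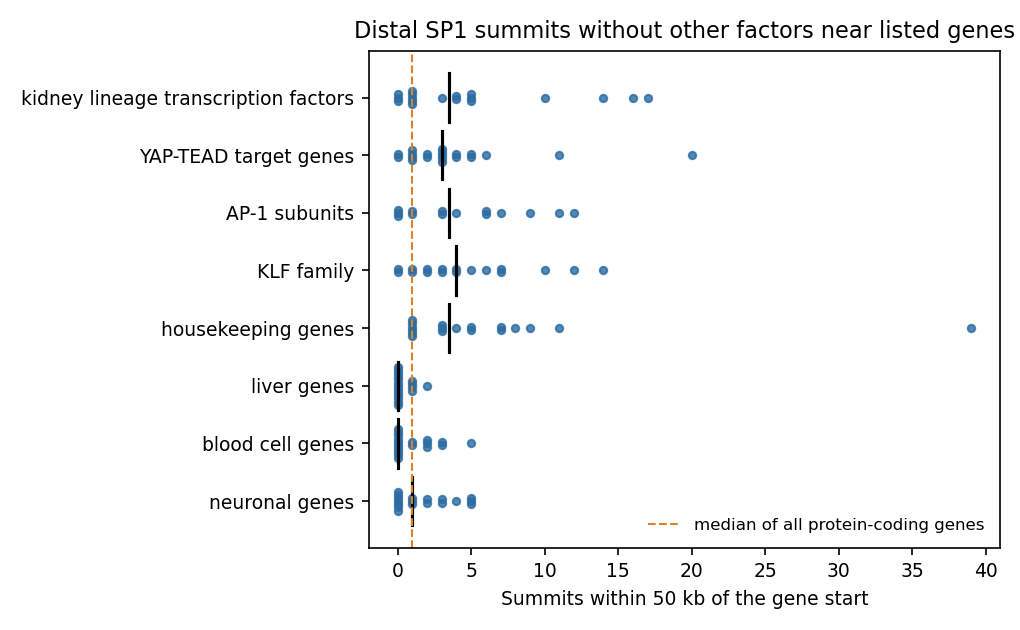
Number of SP1-alone summits within 50 kb of the 5′ end of each gene (horizontal axis), 1 point per gene, in 8 lists. Black bars are the medians, 3 to 4 in the upper 5 lists and 0 to 1 in the lower 3, and the dashed line is the median of 1 over all protein-coding genes.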

How the data were processed

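ChIP-seq was made from 32 samples in 10 groups, and 4 deposited summit lists were used, 1 per antibody. Column 5 of each list is, from its values, the authors' −log10 of a p- or q-value, with no count, depth or sample behind it, so depth is unknown. Per the submitters' processing notes, the build was hg38 and cutadapt, Bowtie2, SAMtools 1.16.1, MACS3 and bedtools were used. Their settings are not given in the sources used here. Members and lists were chosen with earlier results of these data known. Python 3.11.15 with numpy 2.4.6, pandas 2.3.3 and pysam 0.24.0 measured distances to GENCODE 44 and searched hg38 for exact letters on both strands within 50 bp of summits, in flanks 400 bp away and in all windows of 101 bp. Letter search, distances and intervals were tested on simulated data, where 5373 of 5373 planted copies were found.

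No test was run, since summits are not replicates. Shares carry Wilson 95% intervals and differences Newcombe intervals. Named were the 8 highest-scoring members, the 3 highest over 100 kb from a gene start, with CTCF or TGAGTCA letters or at lncRNA starts, all outside chromosome 8, the 5 largest groups, 8 genes, 10 words of 8 letters and the 2 leading genes of 8 lists. Alternatives changed distances, score limits, windows and filters. The planned share of repeat-masked summits had no value, since the reference used does not mark repeats, and copies of the 31 bases at each summit were counted in its place. Signal tracks were not analysed here. Some of the named summits and genes are not reported here.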

Additional observations from a re-analysis of the deposited data

How the results depend on the processing

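The 6 values were recomputed under 11 to 13 alternatives each, and most moved by more than their counting interval. With partners counted within 50 bp, the median score of SP1-alone summits was 8.20, the GC box share 4.44% and the share at transcript starts 8.06%. With 250 bp these were 6.96, 2.79% and 5.10%. With 500 bp they were 7.00, 2.55% and 4.31%, with CTCF letters at 0.457% and AP-1 letters at 4.18%. Distal beyond 1000 bp gave GC boxes at 4.11% and transcript starts at 7.75%. Beyond 10 kb the median was 7.63, with GC boxes at 3.23% and transcript starts at 5.88%. Distal to every annotated transcript start, the median was 7.18 and GC boxes were at 2.38%. The upper 50% of the SP1 list by score left 16161 members with a median of 26.6, GC boxes at 7.30%, CTCF letters at 0.285%, AP-1 letters at 5.43% and transcript starts at 11.2%. The highest summit of each peak left 36245 members with a median of 9.04, CTCF letters at 0.563%, AP-1 letters at 4.76% and transcript starts at 5.95%. With the upper 50% of the other lists as partners the median was 8.69 and CTCF letters were at 0.608%. Without the skipped regions the median was 7.75, AP-1 letters were at 4.11% and transcript starts at 7.26%. Letters within 25 bp gave GC boxes at 2.13%, CTCF at 0.168% and AP-1 at 1.98%, and within 100 bp 6.13%, 0.575% and 6.24%. Transcript starts within 250 bp were at 4.49%, and within 1000 bp at 11.5%. An alternative chosen after seeing the data, summits whose 31 bases occur at 1 place, had a median of 7.81, GC boxes at 3.54%, AP-1 letters at 4.16% and transcript starts at 7.28%. The number of members stayed within 1.5 times under 9 of 11 alternatives. No paired analysis was possible because the lists hold no value per sample. The share of repeat-masked summits was not run. The cause of each shift was not tested beyond how each setting is built.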
